A study of Mus musculus with 18 samples.

Results

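Antibody light chains were followed here through their variable (V) segments. The segments were chosen as the rows of the gene count table named Igkv (kappa) or Iglv (lambda) followed by a digit, with at least 50 reads summed over all 18 libraries. This gave 79 segments, 76 kappa and 3 lambda, of 50584 rows in the table and of 163 light chain V rows. Of the other rows, 46 had no read and 38 had between 1 and 49. The choice rests on measured reads, and MRL/lpr libraries supplied 188978 of the members' reads against 140 from MRL/+. A difference between the strains in these segments is therefore described, and nothing is read from a test of it. Just inside the limit lay Igkv1-132 with 61 reads and Igkv1-122 and Igkv4-59 with 74 each. Just outside it lay Igkv2-112 with 47, Igkv4-75 with 42 and Igkv4-60 with 40.

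The libraries were made from bulk RNA of mouse choroid plexus, an epithelial tissue in the ventricles of the brain and the source of cerebrospinal fluid. MRL/lpr mice carry the lpr mutation of Fas and develop lupus-like autoimmunity, and MRL/+ mice are the related strain without it. MRL/lpr was sampled with 6 libraries at 12 weeks and 6 at 16 weeks of age, and MRL/+ with 3 at each age. The labels do not say that libraries came from separate animals, so a p-value here reflects only how these samples vary, which may be technical variation.

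A light chain gene is assembled in a developing B cell by joining 1 V segment to a short J segment, which is then spliced to a constant region. Most B cells keep a single assembled light chain, of kappa or lambda type, and their daughter cells inherit it. Plasma cells, which secrete antibody, carry very large amounts of this transcript, so V reads in a tissue are weighted towards them. Mice have many kappa V segments and few lambda V segments, and most mouse antibodies carry kappa.

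Total counts ran from 11164284 to 14602253 per library. Choroid plexus epithelium was present throughout, with Ttr, the thyroid hormone carrier of this epithelium, at 121768 to 232519 counts scaled to library size (CPM). Libraries also differed in genes of neighbouring tissues. Pineal markers summed to 42.3 and 38.0 CPM in MRL/lpr 12 week replicates 1 and 4, against at most 9.64 CPM elsewhere. Cerebellar markers reached 306 CPM in replicate 1 of the 12 week MRL/+ group, and muscle markers 327 CPM in replicate 1 of the 16 week MRL/+ group. Lower sums occurred in other libraries: cerebellar markers ran from 7.58 to 169.5 CPM in MRL/lpr, and pituitary markers from 0.155 to 73.9 CPM over all 18 libraries, highest in replicate 3 of MRL/lpr at 12 weeks. Their part in the results was not tested. Call counts are also given without the 4 libraries with the highest pineal, cerebellar and muscle sums.

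The 76 kappa members lie between positions 67609713 and 70704177 of chromosome 6 (GRCm38), 27 on the plus strand and 49 on the minus strand. The 3 lambda members, Iglv1, Iglv2 and Iglv3, lie between 19085017 and 19260859 of chromosome 16. GENCODE release M21 places all 79 at the same positions. It annotates 76 as V genes and 3 (Igkv4-73, Igkv4-56 and Igkv12-40) as V pseudogenes, which held 3192 MRL/lpr reads between them. A kappa segment's name gives its family and, after the hyphen, its order along the locus counted from the J segments. In 12 MRL/lpr libraries, 10 different segments took first place. Their 3′ ends are shown because this stretch distinguishes the leaders and codes for part of the antigen-contacting loop. Each is the last 90 bases of the annotated coding sequence of the C57BL/6J reference (GENCODE M21, GRCm38), 5′ to 3′. Capitals run from the last in-frame cysteine codon, where the antigen-contacting CDR3 loop begins, to the end of the V sequence. These are germline reference sequences and not the transcripts of the MRL mice.
Igkv1-117, chr6:68121738-68121827, plus strand: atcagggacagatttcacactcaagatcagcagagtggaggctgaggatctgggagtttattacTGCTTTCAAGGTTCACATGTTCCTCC
Igkv19-93, chr6:68736297-68736386, minus strand: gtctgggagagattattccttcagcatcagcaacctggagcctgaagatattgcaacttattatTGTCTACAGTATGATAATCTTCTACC
Igkv10-96, chr6:68631963-68632052, minus strand: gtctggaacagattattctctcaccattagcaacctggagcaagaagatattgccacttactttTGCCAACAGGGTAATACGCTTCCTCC
Igkv15-103, chr6:68437836-68437925, plus strand: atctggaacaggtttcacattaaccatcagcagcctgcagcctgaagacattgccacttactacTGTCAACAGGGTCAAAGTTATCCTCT
Igkv1-110, chr6:68271178-68271267, plus strand: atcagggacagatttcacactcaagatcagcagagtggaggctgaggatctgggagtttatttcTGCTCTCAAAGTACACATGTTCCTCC
Igkv4-53, chr6:69648824-69648913, minus strand: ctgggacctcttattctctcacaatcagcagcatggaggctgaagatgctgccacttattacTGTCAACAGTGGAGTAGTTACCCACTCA
Igkv12-46, chr6:69764523-69764612, minus strand: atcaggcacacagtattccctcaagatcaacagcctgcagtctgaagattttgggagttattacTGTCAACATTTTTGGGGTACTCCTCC
Igkv3-10, chr6:70573141-70573230, plus strand: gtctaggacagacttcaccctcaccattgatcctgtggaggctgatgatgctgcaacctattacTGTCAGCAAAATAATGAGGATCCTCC
Igkv9-124, chr6:67942074-67942163, minus strand: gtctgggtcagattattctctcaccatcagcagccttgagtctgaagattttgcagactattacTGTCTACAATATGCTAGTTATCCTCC
Iglv3, chr16:19241207-19241296, minus strand: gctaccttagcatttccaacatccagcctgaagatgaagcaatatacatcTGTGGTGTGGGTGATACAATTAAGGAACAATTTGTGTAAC

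Light chain V reads were abundant in the choroid plexus of MRL/lpr mice and nearly missing from MRL/+. From replicate 1 to 6, the 12 week MRL/lpr libraries held 10775, 8781, 6339, 6830, 5555 and 21254 V reads. Those of 16 weeks held 44957, 30619, 14540, 33608, 4831 and 889. The MRL/+ libraries held 22, 43 and 16 reads at 12 weeks and 8, 24 and 27 at 16 weeks. No MRL/+ library reached the lowest MRL/lpr library, which was replicate 6 of 16 weeks. In CPM the sums were 738 ± 386 and 1563 ± 1179 in MRL/lpr at 12 and 16 weeks (mean ± SD, n = 6), and 2.01 ± 1.18 and 1.73 ± 0.897 in MRL/+ (n = 3). The ratio of these means was 368 at 12 weeks and 903 at 16 weeks. In bulk RNA, fewer B lineage cells and less transcript per cell cannot be told apart.

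**Figure D1:**
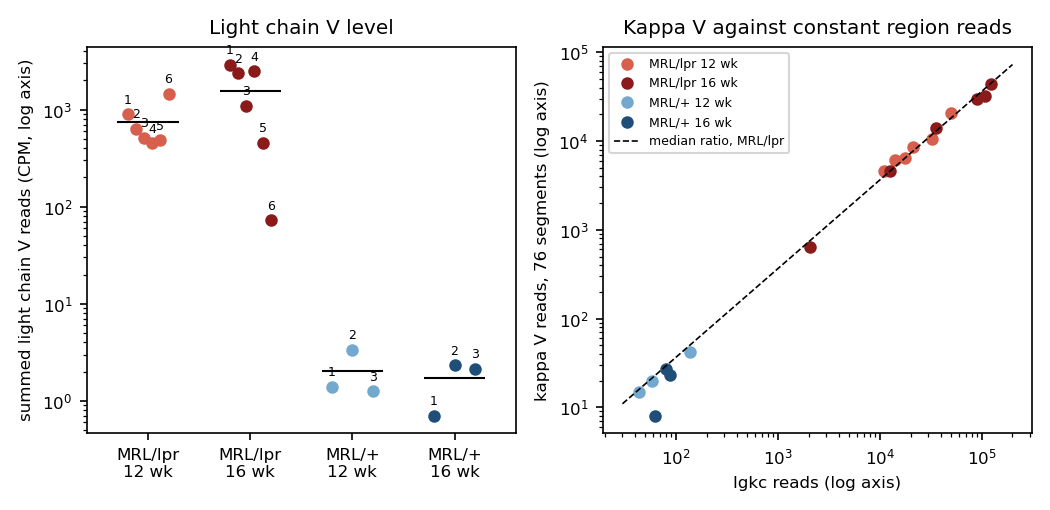
Left, summed level of the 79 light chain V segments in CPM (log axis), 1 point per library with its replicate number, and a line at the group mean. Right, reads of the 76 kappa V segments against reads of the kappa constant region Igkc (both log axes), with a dashed line at the median ratio of the 12 MRL/lpr libraries. All MRL/lpr libraries lie above all MRL/+ libraries, and replicate 6 of 16 weeks, at 72.8 CPM, lies far below the rest of its group.

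The kappa V reads followed the kappa constant region Igkc in every MRL/lpr library. There were between 0.306 and 0.431 kappa V reads per Igkc read, although V reads themselves spanned 889 to 44957. In MRL/+ the ratio ran from 0.129, on 8 V reads, to 0.345. Replicate 6 of 16 weeks, low in V reads, had 0.311 V reads per Igkc read. That library was also lowest of the 12 for 5 B cell markers (Ms4a1, Cd79a, Cd79b, Pax5 and Blk), at 2.95 CPM against 12.9 to 102 CPM in the others. The summed level of 7 plasma cell markers (Jchain, Mzb1, Xbp1, Prdm1, Sdc1, Tnfrsf17 and Derl3) was lowest there too, at 279 CPM against 411 to 2602 CPM. Of the 279 CPM, 170.0 CPM were Xbp1, which was not at its lowest in this library. The part of cell numbers in its low V level was not tested.

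Across all genes, counts were compared with edgeR's quasi-likelihood test and Benjamini-Hochberg adjustment, and 69 of the 79 members passed the filter on low counts. At 12 weeks, 25 members were called higher in MRL/lpr at an adjusted p under 0.05 and none lower, where 5.01% of all 16598 genes tested were called higher. At 16 weeks, 39 were called higher and none lower, against 8.49% of all genes. Since the members were chosen on totals that MRL/lpr dominates, these counts carry no weight of their own. They also depend on few control reads: 35 members had no read in any MRL/+ library. Without the 4 libraries highest in pineal, cerebellar or muscle markers edgeR called 0 (45 with an unadjusted p under 0.05) at 12 weeks and 5 at 16 weeks. Leaving out MRL/+ replicate 1, 2 or 3 in turn gave 3, 3 and 3 at 12 weeks and 15, 16 and 14 at 16 weeks. DESeq2 called 56 and 63, where it called 7.13% and 10.1% of all genes higher.

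Other genes of the light chain pathway were followed through lists of genes with known roles. Of the light chain constant regions, all 4 tested (Igkc, Iglc1, Iglc2 and Iglc3) rose in MRL/lpr at both ages. Igkc was at 1807 ± 998 and 4482 ± 3539 CPM in MRL/lpr at 12 and 16 weeks (n = 6), and at 5.96 ± 4.14 and 6.83 ± 1.60 CPM in MRL/+ (n = 3). Its log2 fold change was 8.25 ± 1.20 (SE, adjusted p = 0.00161) at 12 weeks and 9.36 ± 1.25 (adjusted p = 0.000834) at 16 weeks. Of the joining segments, 5 of 9 were tested (Igkj1 to Igkj5). At 12 weeks 2 of them were called higher in MRL/lpr, and at 16 weeks all 5. These 5 had no read in any MRL/+ library and passed the filter through MRL/lpr alone, so nothing is read from their count. Iglc1, Iglc2 and Iglc3 were at no more than 0.239 CPM in any MRL/+ library, and Iglc3 had no read in MRL/+ at 12 weeks. These constant regions too passed the filter through MRL/lpr alone, so nothing is read from their calls.

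B cell genes were called higher for 5 of 6 tested members at both ages, the exception being Cr2, a complement receptor. The 5 (Ms4a1, Cd79a, Cd79b, Pax5 and Blk) summed to at most 0.439 CPM in any MRL/+ library. They passed the filter through MRL/lpr alone, so nothing is read from their count. Blk, a B cell kinase, had no read in any MRL/+ library. T cell markers (Cd3d, Cd3e, Cd3g, Cd4 and Cd8a) summed to 14.6 to 121 CPM in MRL/lpr and to at most 0.965 CPM in MRL/+. Among MRL/lpr libraries that sum too was lowest in replicate 6 of 16 weeks, and its part in the results was not tested. Plasma cell genes were called higher for 7 of 9 at both ages. The exceptions were Xbp1, a secretory pathway regulator that epithelium also expresses, and Sdc1, a surface proteoglycan. Of the 7, Prdm1, Irf4, Tnfrsf17 and Pou2af1 were at no more than 0.572 CPM in any MRL/+ library. They passed the filter through MRL/lpr alone, so nothing is read from this count. Jchain, which links antibody units into polymers, had a log2 fold change of 8.03 ± 1.03 (adjusted p = 0.00065) at 12 weeks and of 8.87 ± 1.06 (adjusted p = 0.000414) at 16 weeks. The genes that cut and extend V segments during assembly (Rag1, Rag2 and Dntt) were too low to test, with means at or under 0.0916 CPM in every group. Surrogate light chains pair with the heavy chain in precursor B cells. Of a list of their genes (Vpreb1, Vpreb2 and Igll1) and the related Vpreb3, 3 were tested. None was called by edgeR at either age, the smallest adjusted p being 0.0543 for Vpreb3 at 12 weeks. The log2 fold change at 12 weeks was 3.12 for Vpreb3, -0.003 for Vpreb1 and -0.389 for Igll1. Vpreb3 was at no more than 0.292 CPM in any MRL/+ library and passed the filter through MRL/lpr alone, so nothing is read from its values. Vpreb1 was at 12.9 ± 2.39 CPM in MRL/lpr and 13.0 ± 3.75 CPM in MRL/+ at 12 weeks.

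Each MRL/lpr library was led by a different mixture of segments. At 12 weeks the leader of replicate 1 was Igkv1-117, with 12.5% of V reads (95% Wilson interval 11.9 to 13.1). In replicate 2 it was Igkv19-93 with 31.3% (30.3 to 32.2), and in replicate 3 Igkv10-96 with 10.5% (9.81 to 11.3). These intervals, like all others given, cover counting error only, since PCR copies of reads cannot be told from separate molecules. Replicate 4 was led by Igkv15-103 with 14.9% (14.1 to 15.7), replicate 5 by Igkv1-110 with 20.97% (19.9 to 22.1) and replicate 6 by Igkv4-53 with 20.01% (19.5 to 20.6). The 6 libraries of this age thus had 6 leaders.

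At 16 weeks, Igkv12-46 led replicate 1 with 13.7% (13.4 to 14.02) and replicate 3 with 13.3% (12.7 to 13.8). Igkv10-96 led replicate 2 with 24.3% (23.8 to 24.8), and Igkv3-10 led replicate 4 with 13.5% (13.1 to 13.8). Igkv9-124 led replicate 5 with 18.3% (17.2 to 19.4), and the lambda segment Iglv3 led replicate 6 with 24.97% (22.2 to 27.9). Igkv10-96 was the only segment to lead libraries of both ages, and 8 of the 10 leaders led 1 library each. Exon lengths of the members ran from 344 to 404 bases, and dividing reads by length kept the same leader in 11 of the 12 libraries. The exception was replicate 3 of 16 weeks, where Igkv6-32, with 12.9% of reads, came first per length.

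**Figure D2:**
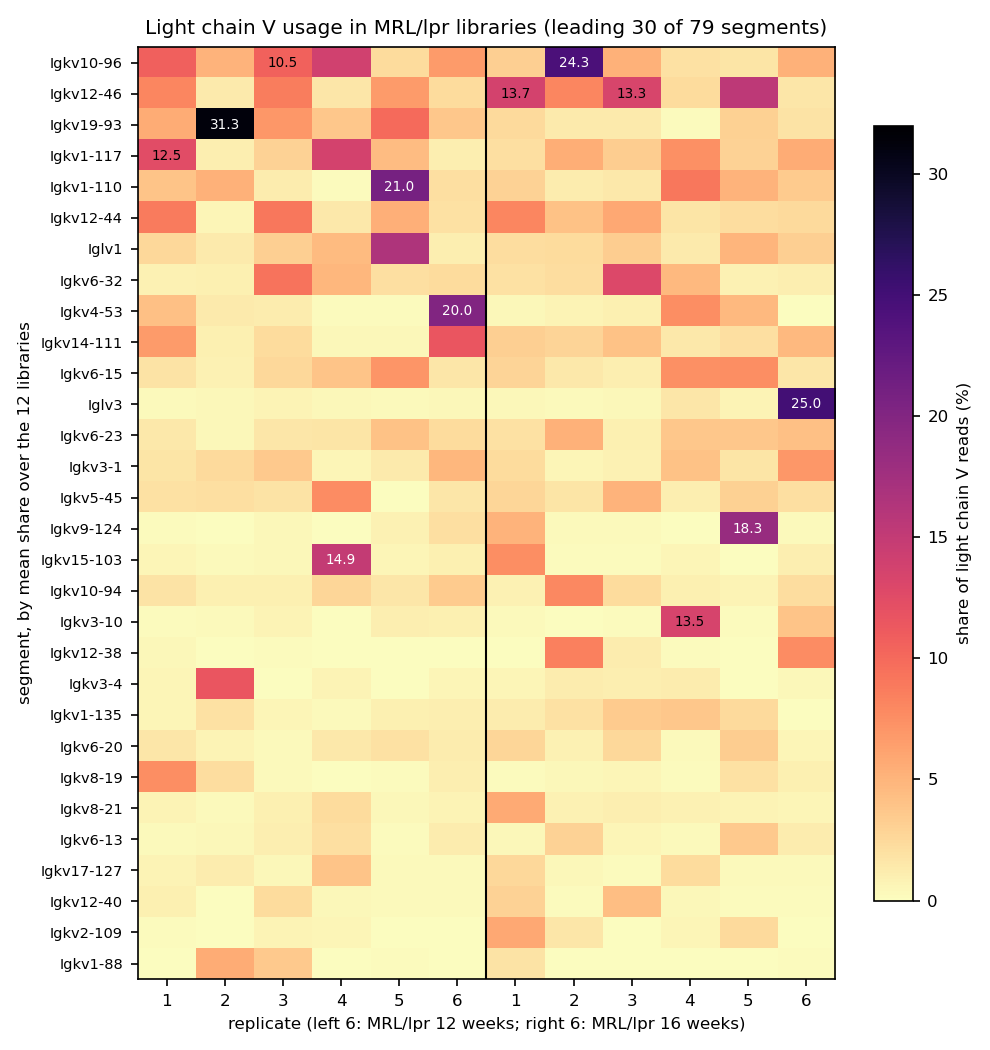
Share of a library's light chain V reads (%, colour scale) for the 30 segments with the highest mean share, in the 6 MRL/lpr libraries of 12 weeks (left) and the 6 of 16 weeks (right). The number in each column is the share of that library's leader, from 10.5% to 31.3%; most leaders are pale in the other columns.

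The segments differed in how widely they were used. The highest mean share over the 12 MRL/lpr libraries belonged to Igkv10-96, at 7.55 ± 6.53% (SD, n = 12). It lay between 2.29% and 13.9% at 12 weeks (median 8.64%) and between 1.64% and 24.3% at 16 weeks (median 4.18%). It was above 1% in all 12 libraries and above 5% in 8. Igkv12-46 was next at 6.92 ± 5.19%, above 1% in all 12 libraries and above 5% in 7. No other member passed 5% in at least 6 libraries.

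The other leaders passed 5% in fewer libraries. Igkv1-117 did so in 5, Igkv1-110 and Igkv19-93 in 4, Igkv15-103, Igkv9-124 and Igkv4-53 in 2, and Igkv3-10 and Iglv3 in 1. Igkv19-93, at a mean of 5.92 ± 8.44%, ranged from 3.63% to 31.3% at 12 weeks (median 6.20%) and from 0.190% to 3.08% at 16 weeks (median 1.55%). Igkv15-103 took 14.9% of replicate 4 of 12 weeks and 7.61% of replicate 1 of 16 weeks, and its other 10 shares ran from 0.0414% to 1.01%. Igkv9-124 took 18.3% of replicate 5 and 5.0% of replicate 1 of 16 weeks, and 2.09% or less of the other 10. Igkv4-53 ranged from 0.112% to 20.01% over the 12 libraries and was under 1% in 6 of them.

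Over the whole set, shares were uneven between libraries. Of the 79 members, 40 had a read in all 12 MRL/lpr libraries. A share over 5% was reached somewhere by 27 members and over 10% by 14. For 23 members, more than 50% of the share summed over the 12 libraries came from 1 library. For the 75 members with a median share above 0, the highest share was a median of 6.77 times the member's own median. The 12 segments with the highest means, Igkv10-96, Igkv12-46, Igkv19-93, Igkv1-117, Igkv1-110, Igkv12-44, Iglv1, Igkv6-32, Igkv4-53, Igkv14-111, Igkv6-15 and Iglv3, made up 54.9% of V reads by mean share.

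Segments of a family resemble each other in sequence. The Igkv12 family, with 5 members, had the highest mean share, 14.3 ± 8.27% (n = 12). Igkv6 with 8 members followed at 13.2 ± 5.05%, and Igkv1 with 9 members at 12.8 ± 6.48%. Igkv4, with 20 members the most numerous family, held 8.28 ± 6.47%, and Igkv10 with 2 members 9.74 ± 8.29%. The order of these families does not stand clear of their spread between libraries.

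Kappa segments from the whole length of the locus were used. The 26 members farthest from the J segments, between 67609713 and 68991294 of chromosome 6, took 49.97 ± 12.2% of kappa V reads at 12 weeks and 40.01 ± 7.50% at 16 weeks. The 25 members of the middle took 25.1 ± 10.03% and 29.7 ± 7.44%. The 25 members nearest the J segments took 24.9 ± 4.20% and 30.3 ± 10.4%. Segments on the minus strand, which join by inversion, took 66.9 ± 8.66% and 67.3 ± 15.8%. These shares overlapped between the ages and were not tested.

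Dominance by single segments was moderate and varied more between libraries than between ages. The leader's share was 18.4 ± 7.53% at 12 weeks and 17.99 ± 5.46% at 16 weeks (n = 6 each). An exact two-sided permutation test gave p = 0.933 (adjusted p = 0.933 over 7 such tests of age). The smallest p that 6 against 6 libraries allow is 0.00216. As much as 50% of a library's V reads was covered by 4 to 8 segments, and 17 to 27 segments held at least 1% each. The top 3 segments together took 28.9% to 48.4%.

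The effective number of segments is the count of equally used segments that would give the same evenness (inverse Simpson index). From replicate 1 to 6 it was 16.4, 7.96, 19.1, 12.7, 9.99 and 14.1 at 12 weeks, and 19.6, 10.9, 16.9, 17.3, 12.5 and 11.1 at 16 weeks. The groups overlapped over nearly their whole range. The means were 13.4 ± 4.08 and 14.7 ± 3.66 (exact permutation p = 0.552, adjusted p = 0.747). In 889 V reads, the depth of the shallowest MRL/lpr library, 54.8 ± 5.26 segments would be seen at 12 weeks and 53.5 ± 2.79 at 16 weeks (exact permutation p = 0.587, adjusted p = 0.747). Richness at equal depth thus differed by less than the spread between replicates.

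**Figure D3:**
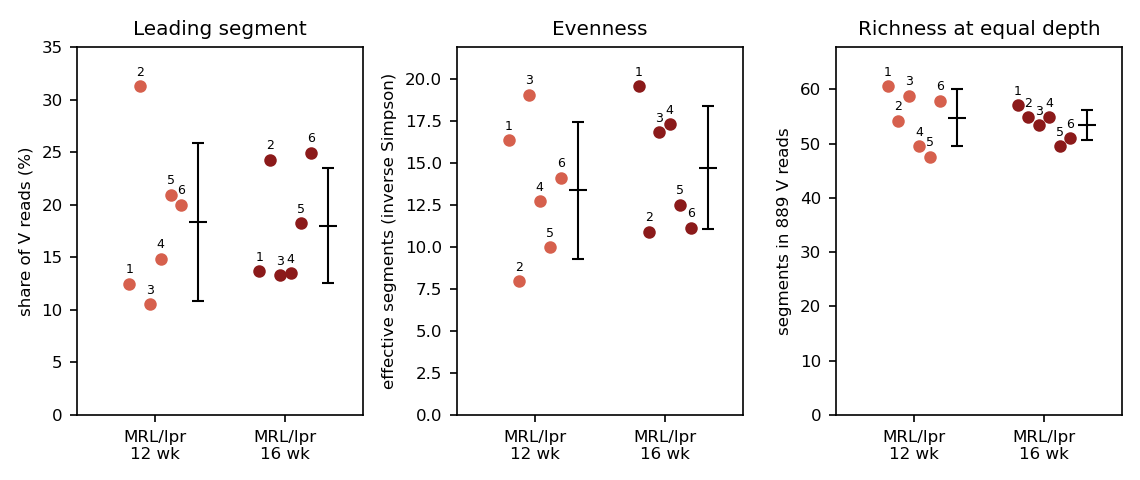
Share of the leading segment (%), effective number of segments (inverse Simpson index) and segments expected in 889 V reads, for the 6 MRL/lpr libraries of each age (points with replicate numbers) with the group mean and SD. The ages overlap in all 3 measures, and replicate 2 of 12 weeks has the highest leading share, 31.3%, and the lowest effective number, 7.96.

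Usage differed between libraries over similar ranges within an age and between ages. The Bray-Curtis distance of usage, which is 0 for equal shares and 1 for no overlap, averaged 0.565 within 12 weeks (15 pairs, 0.367 to 0.696) and 0.549 within 16 weeks (15 pairs, 0.420 to 0.632). Between ages it averaged 0.564 (36 pairs, 0.411 to 0.692). The excess of between-age over within-age distance was 0.00701 (exact one-sided permutation p = 0.251, adjusted p = 0.747). Replicate 2 of 12 weeks, led by Igkv19-93, was the farthest from the other libraries, at a mean distance of 0.653.

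The summed V level of MRL/lpr did not change beyond the spread between replicates from 12 to 16 weeks. On the log2 CPM scale it was 9.39 ± 0.65 and 9.85 ± 2.06 (exact permutation p = 0.641, adjusted p = 0.747). Without replicate 6 of 16 weeks the difference was 1.19 in place of 0.46 (exact permutation p = 0.0606). The highest 16 week library exceeded the lowest 39.9 times, against 3.24 times at 12 weeks. Of the 69 members tested by edgeR, none was called between the ages in MRL/lpr, where 0.0361% of all genes were called, and 16 had an unadjusted p under 0.05, as did 6.73% of all genes. The fitted level was higher at 16 weeks for 55 members and lower for 14. Members read in the same libraries are not separate observations, so nothing is read from this split. The median log2 fold change was 0.88 over the members tested and 0.02 over all genes tested.

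DESeq2 called 2 of 54 members higher at 16 weeks, where it called 0.255% of all genes higher. They were Iglv3 with a log2 fold change of 2.24 (adjusted p = 0.0105) and Igkv2-109 with 4.68 (adjusted p = 0.0451). The edgeR values were 2.23 ± 0.53 (SE, adjusted p = 0.229) and 4.65 ± 1.23 (adjusted p = 0.312). Both are named for this call, after their values were seen. Iglv3 had 34, 39, 46, 26, 20 and 85 reads at 12 weeks and 205, 112, 69, 528, 34 and 222 at 16 weeks, so the ages overlapped. Igkv2-109 had 2604 of its reads in replicate 1 of 16 weeks and 1 in replicate 6. In MRL/+ edgeR called no member between ages (0% of all genes called) and none had an unadjusted p under 0.05. For the interaction of strain and age no member was called (0% of all genes), and 0 had an unadjusted p under 0.05. DESeq2 also called 0 in both, with 1 member at an unadjusted p under 0.05 for the interaction. The members had only 140 reads in all MRL/+ libraries together, and 35 members had none. These tests could thus hardly call a member, and nothing is read from their outcome.

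The few V reads of MRL/+ were spread over many segments. All 6 libraries together had 140 reads in 44 of the 79 members. Igkv10-96 had 19 of them, 13.6% (95% Wilson interval 8.86 to 20.2), from 5 libraries. Igkv1-117 and Igkv12-46 followed with 12 reads each and Igkv1-110 with 10. By mean share in MRL/lpr these segments ranked 1 (Igkv10-96), 4 (Igkv1-117), 2 (Igkv12-46) and 5 (Igkv1-110). Leaders of single MRL/+ libraries rested on 1 to 8 reads.

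The number of segments can be set beside that expected of MRL/lpr libraries in as many reads. MRL/+ replicates 1 to 3 of 12 weeks showed 16, 22 and 14 segments in their 22, 43 and 16 reads. In as many reads, MRL/lpr libraries would on average show 11.3 to 14.5, 16.1 to 21.7 and 9.35 to 11.6. Replicates 1 to 3 of 16 weeks showed 8, 19 and 15 segments in 8, 24 and 27 reads, where MRL/lpr libraries would on average show 5.77 to 6.78, 11.8 to 15.4 and 12.6 to 16.6. The MRL/lpr values are expectations without the sampling spread of a single draw of 8 to 43 reads, so no difference is read from them.

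Kappa light chains predominated in all groups. Lambda V segments (Iglv1, Iglv2 and Iglv3) took 3.00%, 1.82%, 4.24%, 5.08%, 17.1% and 2.02% of V reads in MRL/lpr replicates 1 to 6 of 12 weeks. At 16 weeks they took 2.88%, 2.79%, 4.01%, 2.84%, 5.69% and 28.3%. In 10 of 12 libraries the share thus lay between 1.82% and 5.69%, and 1 library at each age stood far above. The means were 5.55 ± 5.81% and 7.76 ± 10.1% (exact permutation p = 0.632, adjusted p = 0.747). Without replicate 6 of 16 weeks the difference between ages turned from 2.21 to -1.90 percentage points.

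The constant regions set the same 2 libraries apart, but their mean difference between ages had the opposite sign. Iglc1 to Iglc4 took 3.09%, 2.30%, 4.69%, 4.06%, 14.6% and 2.07% of light chain constant region reads at 12 weeks. At 16 weeks they took 1.96%, 1.73%, 2.77%, 1.33%, 4.13% and 14.1%. The libraries with a high lambda V share were also the highest here. The means were 5.14 ± 4.76% and 4.34 ± 4.90% (exact permutation p = 0.558, adjusted p = 0.747), and without replicate 5 of 12 weeks the difference turned from -0.80 to 1.10 percentage points. Exon lengths differ among Igkc (532 bases), Iglc1 (454), Iglc2 (612) and Iglc3 (452), so these are shares of reads and not of molecules.

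**Figure D4:**
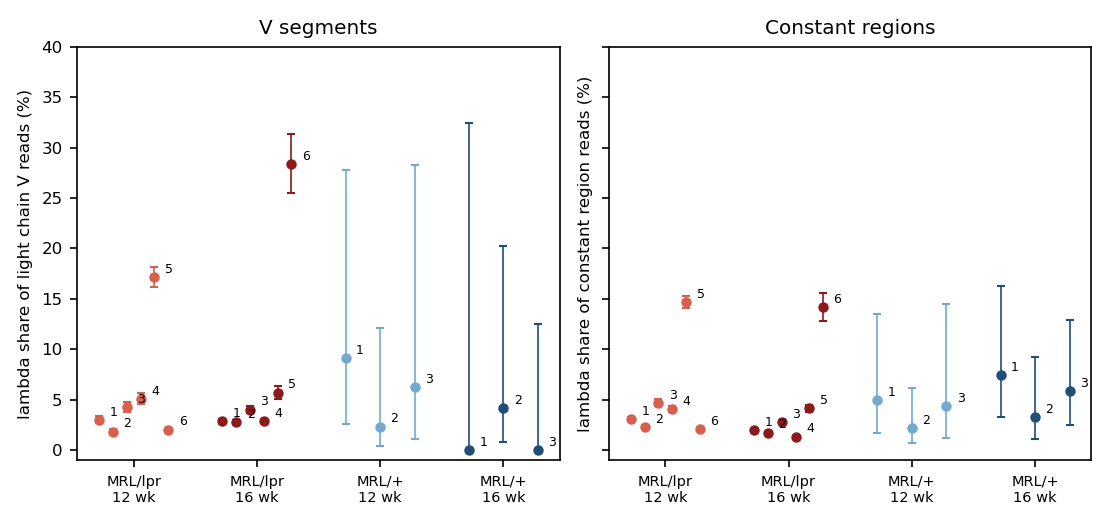
Lambda share of light chain V reads (left, %) and of light chain constant region reads (right, %), 1 point per library with its replicate number and 95% Wilson interval (counting error only). Replicate 5 of MRL/lpr at 12 weeks (17.1% and 14.6%) and replicate 6 at 16 weeks (28.3% and 14.1%) stand above the other MRL/lpr libraries in both panels.

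Different lambda segments filled these 2 libraries. In replicate 5 of 12 weeks, Iglv1 had 923 of the lambda V reads (97.1%) and Iglc1, a constant region that joins with Iglv1 in mice, had 1712 of the lambda constant reads (91.5%). In replicate 6 of 16 weeks, Iglv3 had 222 reads (88.1% of lambda V) and Iglc2, which joins with Iglv2 and Iglv3 in mice, had 294 (87.2% of lambda constant reads). The lambda share of these 2 libraries thus rested mainly on 1 V segment and 1 constant region. Elsewhere the Iglv1 and Iglc1 shares lay further apart. From replicate 1 to 6, Iglv1 was 87.3%, 72.5%, 75.8%, 89.3%, 97.1% and 52.0% of lambda V reads at 12 weeks. Iglc1 was 42.8%, 23.2%, 41.5%, 56.1%, 91.5% and 26.9% of lambda constant reads. At 16 weeks Iglv1 was 76.2%, 84.3%, 83.7%, 44.5%, 85.8% and 11.1%, and Iglc1 18.8%, 26.3%, 40.9%, 26.0%, 33.7% and 9.50%. The cause of the gap was not tested. Over the 12 MRL/lpr libraries Iglv1 was between 1.05% and 16.6% of V reads (mean 3.88 ± 4.19%), Iglv2 at 0.176 ± 0.150% and Iglv3 at 2.60 ± 7.05%. Iglv3 was under 1% in 10 of the 12. In replicate 4 of 16 weeks it had 528 reads against 425 of Iglv1.

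MRL/+ libraries had 5 lambda V reads among 140. Per library there were 2, 1 and 1 at 12 weeks and 0, 1 and 0 at 16 weeks. Pooled, lambda was 4.94% (95% Wilson interval 1.94 to 12.0) of V reads at 12 weeks and 1.69% (0.300 to 8.996) at 16 weeks, against 4.16% and 3.26% in MRL/lpr. Over libraries, the lambda V share at 12 weeks was 5.89 ± 3.397% in MRL/+ and 5.55 ± 5.81% in MRL/lpr (exact permutation p = 0.94). At 16 weeks it was 1.39 ± 2.41% and 7.76 ± 10.1% (exact permutation p = 0.381). No strain difference in the lambda share of V reads was detectable at this depth.

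Lambda constant regions in MRL/+ took 3.80 ± 1.47% at 12 weeks and 5.52 ± 2.10% at 16 weeks. The exact permutation test against MRL/lpr gave p = 0.833 and p = 0.774 (adjusted p = 0.94 for all 4 strain tests, where the smallest possible p is 0.0119). Pooled over libraries, the share was 3.24% (95% Wilson interval 1.65 to 6.26) in MRL/+ and 3.89% (3.79 to 3.98) in MRL/lpr at 12 weeks, and 5.33% (3.14 to 8.90) and 1.96% (1.91 to 2.002) at 16 weeks, with intervals that leave out the spread between libraries. The test over libraries depended on 1 library at 16 weeks. Without MRL/lpr replicate 6, lambda constant reads were lower in MRL/lpr by 3.14 percentage points (exact permutation p = 0.0357, unadjusted).

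Many segments have close relatives, and the authors' handling of reads that align to both is not given in the sources used here. The coding sequence of a member was 58.9% to 98.6% identical to its nearest relative (median 95.03%), and 38 of the 76 members with a coding sequence had one at 95% or more. Igkv3-10, the leader of replicate 4 of 16 weeks, differs from Igkv3-5 at 6 of 359 positions. Igkv1-117 and Igkv1-110, each a leader of a 12 week library, differ at 10 of 359. The aligned 3′ ends of both pairs are shown because they hold some of the positions that could separate their reads. They hold 3 of the 6 and 4 of the 10 differences, and the others lie outside the printed stretch. These are again reference sequences of GENCODE M21, and capitals mark the bases at which the members of a pair differ.
Igkv3-10, chr6:70573141-70573230, plus strand: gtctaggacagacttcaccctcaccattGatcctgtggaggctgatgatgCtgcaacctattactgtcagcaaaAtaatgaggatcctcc
Igkv3-5, chr6:70663806-70663895, plus strand: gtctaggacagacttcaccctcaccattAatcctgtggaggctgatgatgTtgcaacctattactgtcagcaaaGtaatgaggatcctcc
Igkv1-117, chr6:68121738-68121827, plus strand: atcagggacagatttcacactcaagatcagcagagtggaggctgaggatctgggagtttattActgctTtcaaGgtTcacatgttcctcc
Igkv1-110, chr6:68271178-68271267, plus strand: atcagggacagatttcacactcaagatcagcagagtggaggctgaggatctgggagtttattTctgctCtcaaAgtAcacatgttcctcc

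The pairs behaved differently. In the 9 MRL/lpr libraries with at least 20 Igkv3-10 reads, there were 0.4 to 0.7 Igkv3-5 reads per Igkv3-10 read (median 0.467), and both peaked in replicate 4 of 16 weeks with 4529 and 2122 reads. For Igkv1-117 and Igkv1-110 the corresponding ratio ran from 0.0171 to 4.83 in 12 libraries. The counts of Igkv3-10 and Igkv3-5 are therefore reported as uncertain, since 1 transcript could have been counted under both names, which was not tested. The counts of Igkv1-117 and Igkv1-110 moved apart. Igkv10-96 and Igkv10-94, at 95.4% identity, both peaked in replicate 2 of 16 weeks, with ratios from 0.0928 to 0.701.

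**Figure D5:**
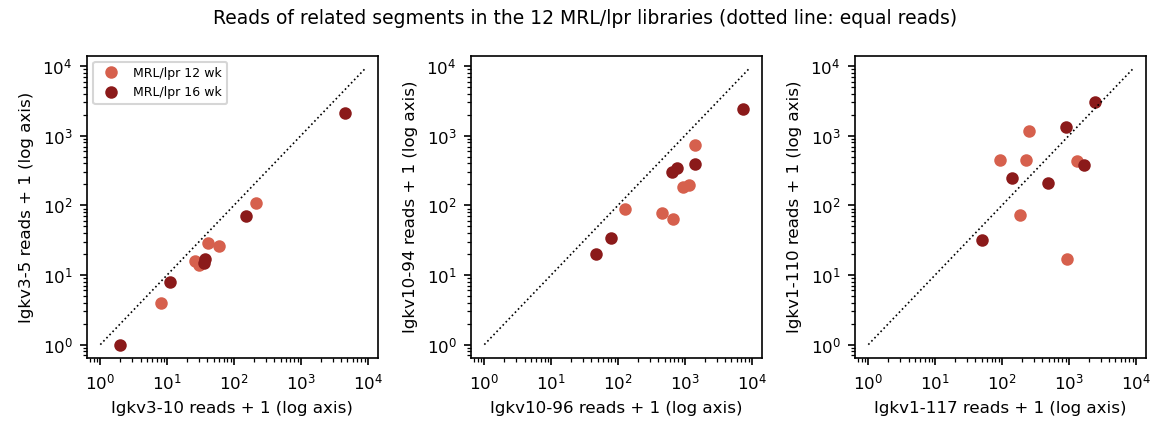
Reads of 3 pairs of related segments in the 12 MRL/lpr libraries (reads + 1, log axes; dotted line, equal reads). Igkv3-5 keeps a near constant ratio to Igkv3-10 (0.4 to 0.7 where Igkv3-10 had at least 20 reads), Igkv10-94 a looser one to Igkv10-96 (0.0928 to 0.701), and Igkv1-110 none to Igkv1-117 (0.0171 to 4.83).

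Other pairs lay on both sides of this range. Igkv5-45 and Igkv5-43, the most alike of the pairs at 98.6% identity, had ratios from 0.0632 to 0.327 in the 10 libraries with at least 20 Igkv5-45 reads. Below that limit they had 5 and 12 reads in replicate 5 of 12 weeks, and 18 and 4 in replicate 6 of 16 weeks. Igkv13-85 and Igkv13-84, whose last 90 coding bases are identical, had 566 and 446 reads in replicate 3 of 16 weeks and at most 15 in any other library. Of 19 pairs of members that were each other's nearest relative, 4 had their highest share in the same library (Igkv3-10 and Igkv3-5, Igkv3-7 and Igkv3-12, Igkv13-85 and Igkv13-84, Igkv3-4 and Igkv3-3). The other 15 pairs peaked in different libraries.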

How the data were processed

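RNA from choroid plexus was sequenced in 18 libraries. The deposited table holds raw read counts per gene, 1 column per library, which the authors made, per the submitters' processing notes, with STAR 2.5.3a (GRCm38), featureCounts 1.26.0 and DESeq2 1.16.1. Its exon length column, per the file headers, is an annotation. The annotation release, strand setting and treatment of reads with several alignments were not given in the sources used here. Reads of MRL mice, with their own alleles and somatic mutations, were aligned to a C57BL/6 genome, which can lower or shift the counts of V segments.

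Counts were analysed with edgeR 4.0.16 in R 4.3.3 (filterByExpr by group, TMM scaling, robust quasi-likelihood fit of 4 group means to 16598 genes, Benjamini-Hochberg adjustment, calls at an adjusted p under 0.05). DESeq2 1.42.0 was an alternative. Usage measures came from the reads of the 79 members, with Python 3.11.15, SciPy 1.17.1 and pandas 2.3.3, and were compared with exact permutation tests over libraries. Wilson intervals are at 95%. Scripts were tested on simulated data. Within groups, the smallest chi-square per gene between libraries was 5.61 over 36 pairs, so none was counted as a repeat of another.

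The members, lists and tests were chosen with earlier results of these data known. The text names the 12 segments with the highest mean share in MRL/lpr, every segment that leads an MRL/lpr library, the lambda segments, those next to the limit of 50 reads, the constant regions and members called between ages. Of the segments outside this rule, 3 are named for their annotation as pseudogenes, and the others are examples of related pairs, chosen after their values were seen. Of the B cell list, 1 gene is not reported here and was left out of its sums and counts. Alternatives were other scalings, filters, segment limits, indices, a replicate block, and leaving out libraries.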

Additional observations from a re-analysis of the deposited data

Results flagged for a closer look

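Within groups of 6 MRL/lpr libraries, a library was picked out where its gap to the nearest other value was large for the group's range (Dixon's test at 95%). Chance alone picks out about 1 in 20 groups, and here 17 of 46 groups tested had such a library. Most of these groups are shares of segments named because they lead a library or have a high mean share, so the rate of 1 in 20 is no baseline for the 17. The measures are related, since a high share of 1 segment enters several of them.

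At 12 weeks, replicate 5 stood apart by its lambda share of V reads (17.1%) and of constant region reads (14.6%), and by its shares of Igkv1-110 (20.97%) and Iglv1 (16.6%). Replicate 2 stood apart by Igkv19-93 (31.3%) and replicate 4 by Igkv15-103 (14.9%). Replicate 6 stood apart by Igkv4-53 (20.01%) and Igkv9-124 (2.09%), and replicate 3 by Iglv3 (0.726%).

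At 16 weeks, replicate 6 stood apart by its lambda share of V reads (28.3%) and of constant region reads (14.1%), and by Iglv3 (24.97%). Replicate 1 stood apart by Igkv15-103 (7.61%), replicate 2 by Igkv10-96 (24.3%), replicate 3 by Igkv6-32 (12.9%), replicate 4 by Igkv3-10 (13.5%) and replicate 5 by Igkv9-124 (18.3%).

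Light chain V rows outside the comparisons, the 38 with totals of 1 to 49, also held reads: 475 in the MRL/lpr libraries against 1 in MRL/+.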

How the results depend on the processing

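Of 61 alternative values that did not leave out a single library, 53 kept the direction and the side of the threshold (or, for counts, stayed within 1.5 times), 7 counts moved and 1 value reversed. The members called higher in MRL/lpr, 25 at 12 weeks and 39 at 16 weeks, were 56 and 63 with DESeq2, 9 and 20 with no filter on low counts, and 0 and 5 without the 4 libraries highest in pineal, cerebellar or muscle markers. Members called between ages in MRL/lpr were 2 with DESeq2, against 0. The age difference in segments at equal depth, -1.32, was 0.11 when 100 reads were drawn in place of 889 (exact permutation p = 0.95). The causes were not tested. Leaving out 1 library at a time gave 3 to 28 and 14 to 48 members called higher at 12 and 16 weeks, and 0 throughout for age in MRL/lpr. For age in MRL/+ and the interaction it also gave 0, from which nothing is read, given the few MRL/+ reads. In the same way the age difference ran from 0.13 to 1.19 for the log2 V level (the highest without MRL/lpr replicate 6 of 16 weeks), from -1.93 to 2.22 percentage points for the leading share, from 0.27 to 2.49 for the effective number, from -2.76 to -0.17 for segments in 889 reads, and from -0.000465 to 0.0136 for the usage distance. It ran from -1.90 to 4.53 percentage points for the lambda V share and from -2.76 to 1.10 for the lambda constant share. The strain difference ran from -2.66 to 1.259 (V) and -0.56 to 1.96 (constant) at 12 weeks, and from 2.26 to 7.76 (V) and -3.14 to -0.21 (constant) at 16 weeks, with p = 0.0357 in an exact permutation test only without MRL/lpr replicate 6. The labels do not say whether replicate numbers pair the samples, and the main tests did not pair them. Deviations of same-numbered MRL/lpr libraries correlated from -0.619 to 0.45 across genes, over 0.1 in 2 of 6 pairs. Those of MRL/lpr libraries of different ages and numbers ran from -0.402 to 0.788, so these correlations cannot decide it. With the number as a replicate block, edgeR called 25 and 33 members higher and 0 for age, and the exact permutation p of 6 of the 7 age tests (not run for the usage distance) ran from 0.313 to 0.875. Without the pair of libraries high in pineal markers, the age difference was 0.42 for the log2 V level, -2.70 percentage points for the leading share, 1.94 for the effective number, -1.19 for segments in 889 reads, 0.0136 for the usage distance, and 1.46 and -1.58 percentage points for the lambda V and constant shares. The alternatives without the 4 libraries, without the pineal pair of libraries, and without the 2 libraries highest in lambda were chosen after the data were seen. The effective number was not compared between strains, since 1 MRL/+ library of each age had under 20 V reads (16 and 8). In MRL/+, V shares rest on 8 to 43 reads a library and constant region shares on 46 to 140.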
